A study of Mus musculus with 3 samples.

Results

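The genes described here are a set of 7 named for committed oligodendrocyte progenitors: Gpr17, Tnr, Bcas1, Lhfpl3, Scrg1, Lims2 and Vxn. They come from 50262 genes in the deposited table, and their transcripts are described in cells of mouse gliomas driven by human EGFR. The name did not hold alike for each gene: in a late glioma cluster below, Lhfpl3 and Scrg1 were not higher in cells without Pdgfra. Among early transgene-negative cells, Tnr, Lhfpl3, Scrg1 and Vxn were not higher in that cluster than in progenitors of another cluster. The 7 genes were picked because they lead the glioma cells that are high in Pdgfra, the receptor that marks oligodendrocyte progenitors. Their level in those glioma cells is therefore a description and not a finding. All 7 were in the table, and all 7 passed the filter on low counts in every comparison over the glioma cells.

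The study sorted dissociated tumor-bearing mouse brain into leukocytes (CD45+) and all other cells (CD45-) and encapsulated both fractions for single-cell RNA sequencing, in which each captured mRNA carries a unique molecular identifier (UMI). The CD45- fraction is used here. There was 1 tumor sample for each of 3 stages, early, medium and large (called late), and each was spread over 4 libraries, so the libraries of a stage are technical repeats. The libraries were sequenced in 3 runs, each with libraries of every stage. All mice were adult, on a mixed background, and carried a conditional transgene for wild-type human EGFR (hsEGFR), constitutive loss of Cdkn2a and a conditional luciferase reporter, among other alleles. Tumors were started in the brain by injection of a lentivirus that encodes Cre recombinase (iCre), so only infected cells and their progeny switch on the transgene, and the virus, not a cell-type promoter, sets which cells these are. Because few cells were available, the early sample was pooled from a pair of samples. Normal brain was not analysed here.

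Oligodendrocyte progenitors divide, express Pdgfra and the proteoglycan gene Cspg4, and give rise to myelinating oligodendrocytes throughout life. On the way they pass a committed, premyelinating state in which Pdgfra falls and genes such as Gpr17, Bmp4, Neu4 and Enpp6 are switched on for a short time, before the myelin genes Mbp and Mog take over. Gliomas often carry cells that resemble this lineage.

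The 7 genes have different roles. Gpr17 encodes an orphan G protein-coupled receptor that acts as a brake on the last steps of oligodendrocyte maturation. Tnr encodes tenascin-R, a matrix glycoprotein of perineuronal nets, and Scrg1 encodes a small secreted protein. Lhfpl3 encodes a tetraspan membrane protein of the lipoma HMGIC fusion partner family, and Lims2 an adaptor of integrin adhesions with LIM domains. Bcas1 marks early myelinating oligodendrocytes, and Vxn (vexin) is known as a promoter of neuronal differentiation in the embryo.

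In the GENCODE M21 annotation of GRCm38, Tnr spans chr1:159523769-159931729 and Lhfpl3 chr5:22746059-23275597, both on the plus strand. Promoters of 2 of the 7 genes, Tnr and Lhfpl3, are shown from the RefSeq promoter table (GRCm38.p6). Its entries run from 250 bases before to 50 bases after the start of each gene. Both genes were among those with the largest difference between progenitors and oligodendrocytes below. Bcas1, Scrg1 and Vxn had no entry under these names. Gpr17 and Lims2, which overlap each other, were left out, which does not mean that they lack an entry. Capitals mark matches, on either strand, to the SOX core ACAANG and to the E-boxes CAGCTG and CAGATG, which basic helix-loop-helix factors read. None of the matches overlap.
Tnr promoter, chr1:159523519-159523818, plus strand: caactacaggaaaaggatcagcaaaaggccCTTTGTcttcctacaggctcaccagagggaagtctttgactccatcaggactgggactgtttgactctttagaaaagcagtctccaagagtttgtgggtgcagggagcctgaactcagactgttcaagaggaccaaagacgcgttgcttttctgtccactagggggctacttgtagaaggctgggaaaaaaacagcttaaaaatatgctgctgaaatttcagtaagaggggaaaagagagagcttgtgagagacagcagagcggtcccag
Lhfpl3 promoter, chr5:22745804-22746103, plus strand: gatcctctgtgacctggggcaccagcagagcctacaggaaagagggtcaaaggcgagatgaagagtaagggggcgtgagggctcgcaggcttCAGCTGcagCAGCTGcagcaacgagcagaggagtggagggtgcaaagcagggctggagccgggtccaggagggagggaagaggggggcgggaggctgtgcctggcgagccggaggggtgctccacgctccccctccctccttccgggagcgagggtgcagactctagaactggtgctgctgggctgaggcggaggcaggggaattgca
The Tnr window held 1 ACAANG match, read on the minus strand, whose first base lies at -220 from the start, and neither E-box. The Lhfpl3 window held 2 CAGCTG matches, at -158 and -149, and no ACAANG or CAGATG. Of all 32851 promoters of 300 bases in the table, 41.2% held ACAANG, 16.3% held CAGCTG and 17.2% held CAGATG. The Tnr window was 48.0% G or C and the Lhfpl3 window 66.0%. A match describes the letters of the window and is not shown to be a site.

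After the limits that the study states (at least 500 UMIs, at least 500 genes and at most 20% mitochondrial UMIs) and removal of called doublets, 6596 cells of the CD45- fraction were kept, 2725 early, 1603 medium and 2268 late. Total UMIs per library ran from 1170793 to 3764859. The transgene followed the stages: hsEGFR stood at 7.28 CPM (UMIs of a gene per 1000000 UMIs of the cells summed) over all early cells, 706 over medium and 1220.0 over late cells. Glioma cells were taken as cells with at least 2 hsEGFR UMIs (hsEGFR cells), of which there were 4 early, 297 medium and 858 late. Early hsEGFR cells were too few for a sum. Transgene-negative progenitors (0 hsEGFR UMIs, at least 2 Pdgfra UMIs, in a cluster named by progenitor markers) numbered 137 early, 92 medium and 73 late. Oligodendrocyte-like cells (0 hsEGFR UMIs, under 2 Pdgfra UMIs, in a cluster named by oligodendrocyte markers) numbered 1335, 621 and 677. The 7 genes were left out of clustering.

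Libraries of the same tumor sample shared cell barcodes. Among kept cells there were 636 pairs of cells with the same barcode in different libraries of a tumor sample, and 94% of these pairs fell in the same cell class. Across tumor samples there were 95 such pairs, of which 21.1% fell in the same class. Whether such a pair is the same cell read again was not tested. Keeping 1 cell per barcode and tumor sample removed 568 cells, 174 of them hsEGFR cells. With 1 cell per barcode the count of the 7 genes called in the test below stayed at 6, and of the medians over the 7 genes given below the one of late hsEGFR cells over progenitors moved most, from -0.90 to -0.97 on the log2 scale.

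Clusters were named by the markers given here, and progenitors were gated on Pdgfra, a progenitor marker, so the following levels describe the groups and are no independent check of their names. In progenitors all 10 progenitor markers were detected, at a summed 20340.0 to 21220.0 CPM per tumor sample, against 1300.0 to 1564 CPM in oligodendrocyte-like cells. The 12 oligodendrocyte markers summed to 369 to 656 CPM in progenitors. In hsEGFR cells all 10 progenitor markers were detected, at 3937 to 5434 CPM, and all 12 oligodendrocyte markers, at 869 to 1570.0 CPM. All 6 T or NK cell markers and all 5 neutrophil markers were at 0 in hsEGFR cells. Of the 1159 hsEGFR cells, 715 (61.7%) lay in clusters named by progenitor markers and 429 (37.0%) in a cluster that stayed unnamed.

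Transgene-negative progenitors had far more transcripts of 6 of the 7 genes than oligodendrocyte-like cells of the same tumor samples. The count test (edgeR's quasi-likelihood test on UMIs summed per tumor sample and cell group, 3 tumor samples, tumor sample as a block, Benjamini-Hochberg adjustment over all genes) called 6 of the 7 genes higher and 0 lower, where 21.7% of the 11315 genes tested were higher and 21.4% lower. Bcas1 was the exception. Oligodendrocytes were among the cells against which the genes were picked, so these p-values are not fully independent of the choice.

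**Figure D1:**
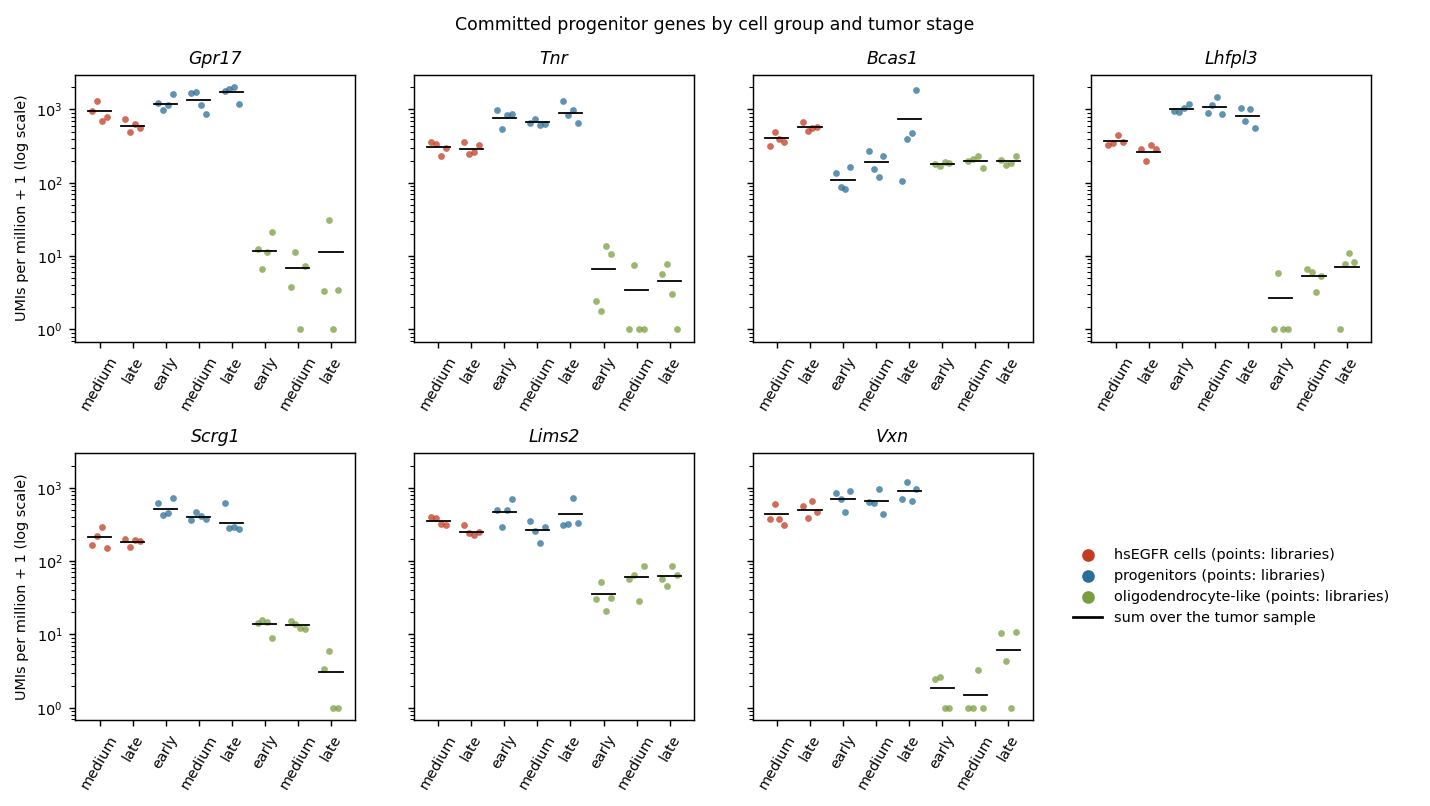
Level of each of the 7 genes (CPM + 1, log axis) in hsEGFR cells, transgene-negative progenitors and oligodendrocyte-like cells by tumor stage. Points are libraries, which are technical repeats of 1 tumor sample per stage, and black bars are the sum over the tumor sample. Apart from Bcas1, every library with at least 10 progenitors or hsEGFR cells lies above every library of oligodendrocyte-like cells. The share of all genes that separate the libraries in this way was not counted.

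Gpr17, the receptor, stood at 1217, 977, 1135 and 1641 CPM in the progenitors of the 4 early libraries (A to D), at 1654, 1727, 1134 and 875 CPM in the medium libraries and at 1797, 1911, 2046 and 1201 CPM in the late ones. In oligodendrocyte-like cells it was at 5.65 to 20.7, 0 to 10.3 and 0 to 30.1 CPM. No library of the progenitors came near the oligodendrocyte range. The fold change was 6.71 on the log2 scale (SE 0.25, edgeR adjusted p = 2.01e-19, 3 tumor samples). Under gates on UMIs without clusters Gpr17 was not called. Oligodendrocyte-like cells chosen by those gates had it at 38.8 CPM early, 5.5 medium and 104 late. Thinned to 2000 UMIs per cell, so that depth is alike, 84.2% of early, 79.0% of medium and 80.5% of late progenitors had a Gpr17 UMI, leaving out 42, 16 and 32 shallower cells. Without thinning the shares were 78.8%, 78.3% and 72.6%. In thinned oligodendrocyte-like cells the share was 0.413% to 1.55%, and in thinned choroid plexus cells, which should lack the gene, it was 0.654%.

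The matrix gene Tnr stood at 989, 547, 846 and 855 CPM in early progenitors, at 657, 749, 614 and 643 CPM in medium ones and at 1313, 843, 975 and 662 CPM in late ones. In oligodendrocyte-like libraries Tnr did not pass 12.6 CPM, and it was higher in progenitors by 6.99 on the log2 scale (SE 0.28, edgeR adjusted p = 7.12e-19). Lhfpl3 stood at 950.5, 914, 1063 and 1172 CPM in early progenitors, at 899.8, 1168, 1468 and 862 CPM in medium ones and at 1037, 693, 1014 and 559 CPM in late ones. Its highest oligodendrocyte-like library was at 10.0 CPM, and the fold change was 7.46 (SE 0.30, edgeR adjusted p = 8.28e-19). For both genes progenitors and oligodendrocyte-like cells did not overlap in any library, and the share of all genes without such overlap was not counted.

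Vxn had the largest fold change of the 7, 8.03 on the log2 scale (SE 0.34, edgeR adjusted p = 1.75e-18), with 438 to 1199 CPM over the progenitor libraries and 0 to 9.66 CPM over the oligodendrocyte-like ones. Scrg1 ranged from 269 to 717 CPM in progenitors and from 0 to 14.5 CPM in oligodendrocyte-like cells (5.02, SE 0.30, edgeR adjusted p = 6.09e-15). Lims2 had the smallest difference of the 6 genes called, with 173 to 727 CPM in progenitors and 19.9 to 84.3 CPM in oligodendrocyte-like cells (2.41, SE 0.25, edgeR adjusted p = 1.97e-09).

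Bcas1, the gene of early myelination, was present in both cell groups. Oligodendrocyte-like libraries lay close together, at 166 to 194 CPM early, 157 to 234 CPM medium and 176 to 229 CPM late. Progenitor libraries stood at 133, 86.0, 81.0 and 165 CPM early and at 267.5, 152, 120.1 and 232.5 CPM medium, and spread from 104 to 393.5, 478 and 1822 CPM late. The groups overlapped, and the fold change of -0.074 (SE 0.50, edgeR adjusted p = 0.922) was not called. In the late progenitors 1 cell held 79 of 137 Bcas1 UMIs. Without the late tumor sample Bcas1 was lower in progenitors by -0.90 (SE 0.28, edgeR adjusted p = 0.0222).

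The progenitors were not all alike. Of the early, medium and late progenitors, 120, 70 and 44 lay in a cluster with almost no transgene (cluster 13, in which 251 of 256 cells had 0 hsEGFR UMIs and 4 had at least 2), and the others lay in other progenitor-named clusters. In medium progenitors all 12 iCre UMIs were outside cluster 13, in 6 cells, and in the other stages no progenitor had an iCre UMI, whereas 62.6% of medium and 61.4% of late hsEGFR cells had one. In the late sample Bcas1 stood at 1911 CPM in the 29 progenitors outside cluster 13 and at 648 CPM without the cell with 79 UMIs, against 179 CPM in the 44 inside it. Gpr17 went in the opposite direction, at 482 against 2363 CPM. When cluster 13 alone stood for the progenitors, the same 6 genes were called higher and Bcas1 was called lower (-0.85, SE 0.23, edgeR adjusted p = 0.00368).

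Across stages the progenitor levels of the 7 genes were compared as ratios of sums. Late over early, 1 of the 7 was at least 2-fold higher, Bcas1 with a log2 ratio of 2.79 (1.76 without late library D, 1.60 without its cell with 79 Bcas1 UMIs and 0.76 for late progenitors of cluster 13 alone), where 10.4% of the 9580 genes with at least 10 UMIs were that much higher and 10.1% that much lower. The other 6 lay between -0.63 (Scrg1) and 0.55 (Gpr17). In the progenitors of cluster 13 alone Gpr17 went from 1213 CPM early to 2363 CPM late. Medium over early, none of the 7 passed 2-fold in either direction (background 10.1% higher and 10.8% lower), and they ran from -0.79 for Lims2 to 0.85 for Bcas1. With 1 tumor sample per stage there is no test of these values. In oligodendrocyte-like cells, late over early, 2 of the 7 were at least 2-fold higher (Vxn, 10 against 3 UMIs, and Lhfpl3, 12 against 6) and 1 was lower (Scrg1, 4 against 45), where 7.33% and 5.28% of genes were. Medium over early, Lhfpl3 (9 against 6 UMIs) was higher and Tnr (5 against 20) lower, where 6.64% and 5.57% of genes were. All of these rest on few UMIs.

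The test of progenitors against oligodendrocyte-like cells gave the following counts for the surrounding programmes. Of 20 further progenitor genes tested, 18 were higher in progenitors and 0 lower, among them Pdgfra, which the gate on progenitors itself used (10.19 on the log2 scale), and Cspg4 (7.88, SE 0.34, edgeR adjusted p = 1.61e-17). The list includes all 10 markers that named the progenitor clusters, Cspg4 among them, so this count was largely set by the choice of cells. Of 17 tested genes of committed and newly formed oligodendrocytes, 10 were higher and 5 lower. The sialidase gene Neu4 (10.07, SE 0.36, edgeR adjusted p = 1.46e-19) and Bmp4 (3.32) were higher in progenitors, while Enpp6, a choline phosphodiesterase of newly forming oligodendrocytes, was lower (-4.85, SE 0.82, edgeR adjusted p = 0.00296). All 20 genes of mature myelin were lower in progenitors, with Mbp at -5.27. They include all 12 markers that named the oligodendrocyte clusters, so this count too was largely set by the choice of cells. The median over all genes tested was -0.028, and 50.3% of the calls were higher in progenitors. Scaled by library totals alone, without TMM normalization, the median over all genes was 0.53 and 76.6% of the calls were higher.

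**Figure D2:**
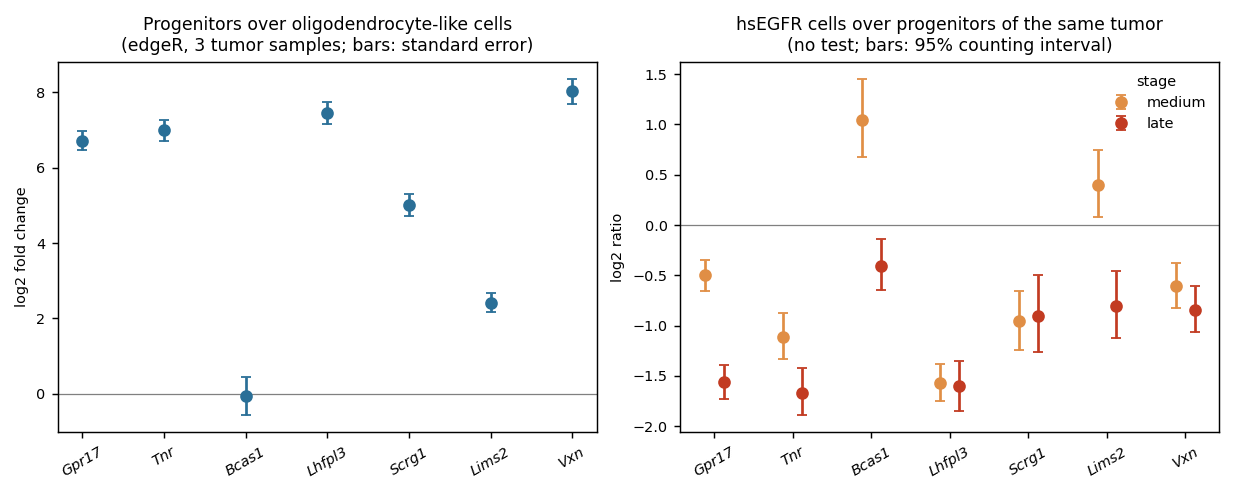
Left, log2 fold change of each gene in progenitors over oligodendrocyte-like cells with its standard error (edgeR, 3 tumor samples). Right, log2 ratio of hsEGFR cells over progenitors of the same tumor sample, with the 95% interval that counting error gives and no test. Progenitors were gated on Pdgfra and on a progenitor-named cluster, and hsEGFR cells were not. On the left 6 genes lie between 2.41 and 8.03 and Bcas1 lies at -0.074. On the right 5 of 7 medium values and 7 of 7 late values are below 0, where the late value of Bcas1 (-0.40) is 0.62 without late library D. The medians over all genes, given below, are under 0 as well, and the share of all genes below 0 is not given. Over hsEGFR cells of progenitor-named clusters alone, chosen after seeing the data, 4 of 7 late values are above 0.

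In hsEGFR cells the 7 genes were present at lower levels than in progenitors for most genes and above oligodendrocyte-like cells, least so for Bcas1. The comparison shares its progenitor sums with the test above, and since the genes were picked in the glioma cells it is a description with no test. Progenitors were gated on Pdgfra and on a progenitor-named cluster and hsEGFR cells were not, so the groups were chosen by unlike rules. The median log2 ratio over the 7 genes was -0.61 medium and -0.902 late. Over hsEGFR cells of progenitor-named clusters alone, chosen after seeing the data, it was -0.573 and 0.256. Gpr17 in hsEGFR cells stood at 940.2, 1293, 695 and 779 CPM over the 4 medium libraries and at 747, 493, 635 and 557 CPM over the late ones. The medium range overlapped that of medium progenitors, and every late library lay below every library of late progenitors. The share of all genes whose libraries separate in this way was not counted, here or for Bcas1 below. The log2 ratio of hsEGFR cells over progenitors was -0.50 (95% counting interval -0.65 to -0.34) at the medium stage and -1.56 (-1.73 to -1.39) at the late stage. Such intervals cover counting error only. Thinned to 2000 UMIs, 41.7% of medium and 35.3% of late hsEGFR cells had a Gpr17 UMI (31 and 111 shallower cells left out), and 49.5% and 44.5% had one without thinning.

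Tnr in hsEGFR cells stood at 356, 342, 232 and 302 CPM in medium libraries and at 361, 242, 262 and 323 CPM in late ones, below every progenitor library. Its log2 ratios were -1.11 and -1.66. Lhfpl3 was likewise below every progenitor library, at 323.5, 352, 446 and 361.5 CPM medium and at 289.8, 196, 326 and 292 CPM late, with log2 ratios of -1.57 and -1.60. For Tnr and Lhfpl3 too the share of all genes with such separation was not counted. Scrg1 ranged from 151 to 291 CPM at the medium stage and from 155 to 200.4 CPM at the late stage, with log2 ratios of -0.95 and -0.90. Vxn ranged from 314 to 596 CPM and from 389 to 649.8 CPM, with log2 ratios of -0.61 and -0.84.

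Bcas1 went the other way at the medium stage. In hsEGFR cells it stood at 312.5, 492, 389 and 356 CPM in the medium libraries, above every medium progenitor library, and at 667, 513, 556.5 and 584 CPM in the late libraries. The log2 ratio over progenitors was 1.04 (0.67 to 1.46) at the medium stage and -0.40 (-0.64 to -0.14) at the late stage, where the progenitor value was 749 CPM, and 364 CPM without late library D, which turned the ratio to 0.62. Within the 3 runs the late ratio was 0.94, 0.19 and -1.65. Lims2 was at 309 to 400.2 CPM and at 229.5 to 307 CPM, with ratios of 0.40 and -0.80 over progenitors.

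Counted together, at the medium stage 1 of the 7 genes was at least 2-fold higher in hsEGFR cells than in progenitors (background 17.1% of 14024 genes) and 2 were at least 2-fold lower (background 21.9%), with a median of -0.61 against -0.16 over all genes. At the late stage none were 2-fold higher (background 15.5% of 16296 genes) and 3 were 2-fold lower (background 28%), with a median of -0.90 against -0.32. Without late library C 5 of the 7 were 2-fold lower, and Bcas1 was 2-fold higher in late hsEGFR cells where progenitors needed at least 3 Pdgfra UMIs (1.16) or lay in cluster 13 (1.63). At equal depth (thinned to 2000 UMIs) the medium ratio of Bcas1 was 0.62, under 2-fold, and it was 0.76 without medium library B and 0.89 without medium library C. Without medium library B the medium median was -0.92. Within runs the medians were -0.82, -0.61 and -0.50 at the medium stage and -1.25, -1.65 and -1.03 at the late stage. Over oligodendrocyte-like cells all 7 genes were at least 2-fold higher at both stages (background 32.5% medium and 34.6% late), from 1.01 (Bcas1) to 9.20 (Vxn, against 1 UMI) at the medium stage and from 1.54 (Bcas1) to 6.53 (Vxn) at the late stage.

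Other programmes differed between hsEGFR cells and progenitors as well. Of 20 progenitor genes, 16 were at least 2-fold lower in medium and 15 in late hsEGFR cells. The list includes Pdgfra, on which the progenitors were gated, and the markers that named their clusters. Of 10 cell cycle genes 9 were at least 2-fold higher at both stages. Mature myelin genes were at least 2-fold higher in medium hsEGFR cells for 18 of 20 genes and in late ones for 6 of 20. Of all genes, 17.1% were that much higher and 21.9% lower at the medium stage, and 15.5% and 28% at the late stage. The 12 oligodendrocyte markers stood above their level in progenitors in the same hsEGFR cells (ranges given above), and the part of RNA from other cells in these values was not tested.

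Between the medium and the late tumor sample the summed levels in hsEGFR cells moved by less than 2-fold for all 7 genes (background 8.27% of 17155 genes higher and 7.32% lower). Bcas1 (0.50) and Vxn (0.21) were higher late, and Tnr (-0.11), Scrg1 (-0.22), Lhfpl3 (-0.48), Lims2 (-0.50) and Gpr17 (-0.70) were lower late, with a median of -0.22. Within the 3 sequencing runs the median was -0.33, -0.26 and 0.094, so the sign was not the same in all runs. Without medium library D the median was -0.36, and without late library B it was -0.11. The stages have 1 tumor sample each, so stage and tumor cannot be told apart.

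The make-up of the hsEGFR cells also differed between the samples. At the late stage 421 of 858 hsEGFR cells (49.1%) lay in the unnamed cluster 12, led by Itga8, Tinagl1, Thbs2, Crym and Tnc, of which Thbs2 and Tnc encode matrix proteins and Itga8 an integrin, and with the astrocyte markers Gja1, Agt and Gfap at least 2-fold above other cells, against 4 of 297 (1.35%) at the medium stage. All 4 early hsEGFR cells also lay there. A single cell (1 of the 4) held all of their 5 Gpr17, 2 Bcas1, 3 Lhfpl3 and 4 Lims2 UMIs. None of the 4 had a Tnr, Scrg1 or Vxn UMI. In cluster 12 the 7 genes were low: 26.5 CPM for Gpr17, 73.4 for Bcas1, 102 for Vxn, 27.1 for Lhfpl3, 34.2 for Lims2, 8.83 for Scrg1 and 1.10 for Tnr. Over the hsEGFR cells of progenitor-named clusters alone, all 7 genes had a log2 ratio above 0, late over medium, from 0.50 (Gpr17) to 1.27 (Vxn) and 1.63 (Bcas1), with a median of 1.00. The share of all genes above 0 was not taken over these clusters, here or against progenitors below. The counts thus do not set the 7 genes apart from others. These clusters differ by stage: cluster 19 held 233 medium and no late hsEGFR cells, and cluster 8 held 27 medium and 317 late ones. Within cluster 8, Gpr17 (2546 CPM medium and 1683 CPM late), Vxn (1660.0 and 1230.0), Scrg1 (502 and 456) and Lims2 (661.5 and 643) were lower late, and Bcas1 (1193 and 1542), Tnr (715 and 816) and Lhfpl3 (597 and 667) were higher. Against progenitors, the late ratios over these clusters ran from -0.41 (Lhfpl3) to 0.77 (Bcas1), with a median of 0.26 and 4 of 7 genes above 0.

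**Figure D3:**
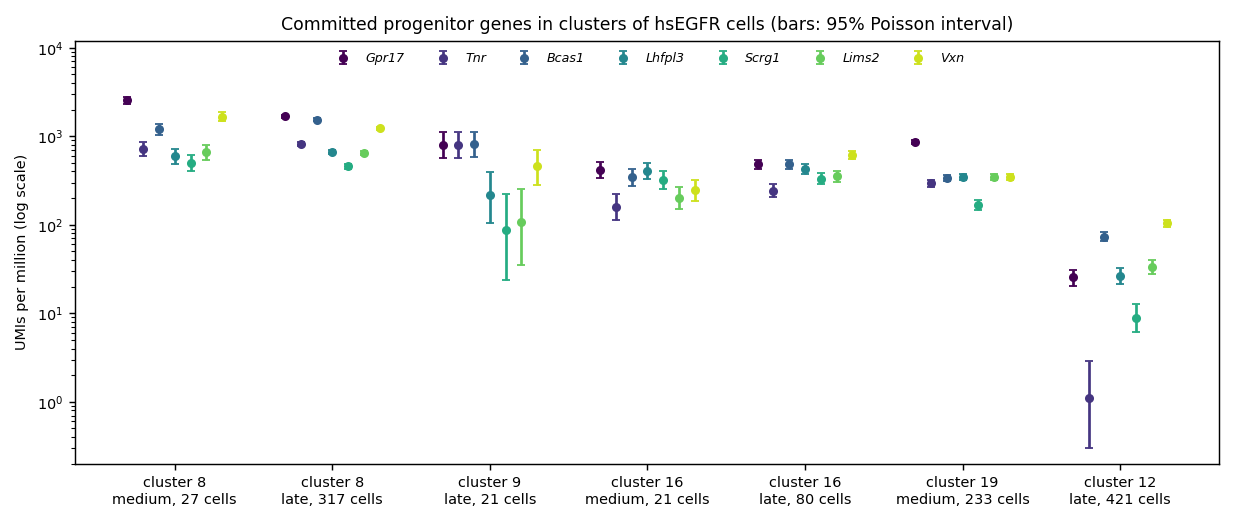
Level of each of the 7 genes (CPM, log axis) in hsEGFR cells of each cluster and stage with at least 20 cells. Bars are 95% Poisson intervals of the summed count and cover counting error only. Gpr17 is highest in cluster 8, at 2546 CPM medium and 1683 CPM late, and all 7 genes are lowest in cluster 12, with Tnr at 1.12 CPM.

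Cluster 8 held much of the Gpr17 of the late hsEGFR cells (3151 UMIs in 317 cells), and cluster 19 most of that of the medium ones (1392 UMIs, against 431 in the 27 medium cells of cluster 8). The leading genes of cluster 8 by fold, Dmrtb1, Mycl, Bcas1, Gm38039, Gpr17 and Bmp4, include members of the set, which were left out of the clustering. The antisense gene Gm38039, whose exonic bases all lie within Tnr exons, was not among the genes left out. Over the 344 hsEGFR cells of cluster 8 Gpr17 stood at 1755 CPM, Bcas1 at 1513, Vxn at 1266, Tnr at 808, Lhfpl3 at 661, Lims2 at 645 and Scrg1 at 459.5 CPM. Clusters are built from the same cells, so these are descriptions.

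The medium hsEGFR cells lay mainly in cluster 19 (233 cells, 78.5% of the stage), whose leading genes include the interferon-inducible GTPase genes Igtp, Iigp1 and Ifi47. There Gpr17 stood at 853 CPM and the other 6 genes between 168 (Scrg1) and 349 CPM (Lhfpl3). The cycling cluster 16 (101 cells, led by Aspm and Kifc1) had Gpr17 at 464 CPM, Vxn at 506, Bcas1 at 441, Lhfpl3 at 421, Scrg1 at 329.9, Lims2 at 308 and Tnr at 219 CPM. Cluster 16 thus had UMIs of all 7 genes, at levels between those of clusters 8 and 12.

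By Pdgfra, the measure that picked the genes, the hsEGFR cells were split into cells with at least 2 Pdgfra UMIs (126 medium, 303 late) and cells with none (147 medium, 465 late). At the medium stage all 7 genes were higher in the Pdgfra-high cells, from 0.13 for Bcas1 to 1.58 for Lhfpl3 on the log2 scale, with a median of 0.60. At the late stage Lhfpl3 (1.44), Scrg1 (1.29) and Vxn (0.56) were higher, Tnr (0.13), Lims2 (0.081), Gpr17 (-0.014) and Bcas1 (-0.15) lay near 0, and the median was 0.13. Over the late hsEGFR cells of progenitor-named clusters alone the median was -1.22, from -1.47 for Bcas1 to 0.20 for Lhfpl3. The counts past 2-fold were 1 medium and 2 late, where 13.7% and 8.73% of genes were that much higher and 8.85% and 6.43% that much lower. Within the 3 runs the medians were 1.14, 0.54 and 0.28 at the medium stage and -0.056, 0.41 and 0.63 at the late stage, where the sign differed between runs. Without medium library B 4 of the 7 genes were past 2-fold, and thinned to 2000 UMIs 3 were. Without medium library B the medium median was 1.01, without late library A the late median was 0.28, and without late library D it was 0.051. Just outside the threshold, the 115 cells with 1 Pdgfra UMI had Gpr17 at 621 CPM, Bcas1 at 333 and Lhfpl3 at 179 CPM. Just inside it, the 66 cells with 2 had Gpr17 at 686.5 CPM, Bcas1 at 434 and Lhfpl3 at 292 CPM. At the hsEGFR threshold, in progenitor-named clusters other than cluster 13, the 58 cells with 1 hsEGFR UMI had Gpr17 at 856 and Bcas1 at 2238 CPM, and the 57 cells with 2 had 604 and 729 CPM.

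Inside late cluster 8, 5 of the 7 genes were higher in the cells without Pdgfra. The 134 hsEGFR cells with no Pdgfra UMI had more Gpr17 (2372 against 1081 CPM), Bcas1 (2350.0 against 952), Tnr (1173 against 556), Lims2 (988 against 428) and Vxn (1541 against 1009) than the 159 hsEGFR cells with at least 2 Pdgfra UMIs. The log2 ratios were 1.13, 1.30, 1.08, 1.21 and 0.61 in this order. Lhfpl3 (594 against 731 CPM, -0.30) and Scrg1 (438 against 473 CPM, -0.11) did not share this direction. For Gpr17 the values without Pdgfra were 2729, 2110.0, 2748 and 2010.0 CPM in late libraries A to D and those with Pdgfra were 1455, 1228, 920.5 and 808 CPM, so the classes did not overlap. For Bcas1 they were 2413, 2425, 2043 and 2505 CPM against 1240.0, 877, 1042 and 769 CPM. Tnr, Lims2 and Vxn had the same direction in all 4 libraries. The share of all genes that separate the classes, or keep 1 direction, over these technical repeats was not counted.

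**Figure D4:**
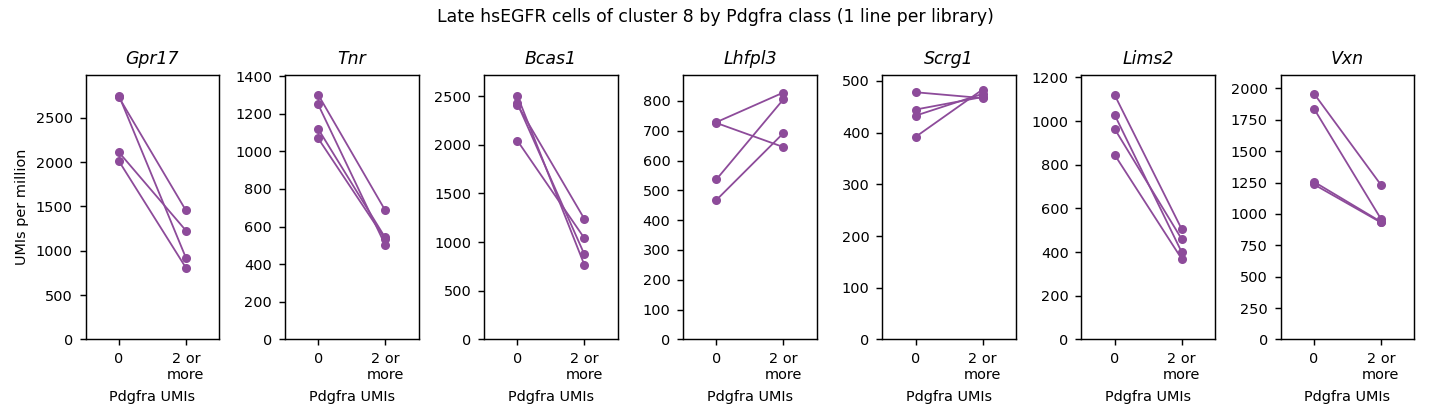
Level of each gene (CPM) in late hsEGFR cells of cluster 8 with 0 and with at least 2 Pdgfra UMIs, 1 line for each of the 4 late libraries, which are technical repeats of 1 tumor sample. The lines of Gpr17, Tnr, Bcas1, Lims2 and Vxn fall in all 4 libraries, and those of Lhfpl3 and Scrg1 do not. The share of all genes whose lines fall in all 4 libraries was not counted.

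Cells without Pdgfra were shallower, with a median of 3841.5 UMIs against 5719. Thinned to 2000 UMIs (96 and 147 cells), the log2 ratios were 1.22 for Gpr17, 1.40 for Bcas1, 1.09 for Tnr, 1.30 for Lims2, 0.75 for Vxn, -0.40 for Lhfpl3 and -0.029 for Scrg1. With 1 cell per barcode (92 and 135 cells) they were 1.14, 1.34, 1.09, 1.17, 0.52, -0.36 and -0.15. Thus 4 of the 7 genes were at least 2-fold higher in the cells without Pdgfra, where 7.8% of 12388 genes were that much higher and 12.8% that much lower. The genes were picked by their link to Pdgfra in these cells, and cluster 8 was singled out after its values were seen, so no test was made.

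The cells of cluster 8 without Pdgfra also carried the neighbouring steps of the lineage. Enpp6 stood at 1140.0 CPM in them against 22.6 CPM in those with Pdgfra, and Bmp4 at 703 against 107 CPM. Of 19 genes of committed and newly formed oligodendrocytes with enough UMIs, 16 were at least 2-fold higher, with a median of 2.20 against -0.10 over all genes. Of 10 cell cycle genes 9 were at least 2-fold lower, with Mki67 at 5.51 against 39.2 CPM. Cspg4 stood at 63.4 against 272 CPM, and 8 of 20 progenitor genes, Pdgfra among them by choice of the cells, were at least 2-fold lower. Mbp was at 3195 against 327.5 CPM, and 7 of 17 mature myelin genes were at least 2-fold higher. The iCre transcript was at 197 CPM in the cells without Pdgfra and at 236 CPM in those with it.

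The early sample, with almost no transgene, held 32 cells of cluster 8 with 0 hsEGFR UMIs, the measure by which they were chosen. Their iCre count was 0 of 73708 UMIs, where a limit of 3 counts allows up to 40.7 CPM. These cells had Gpr17 at 3310.0 CPM, Lims2 at 963, Tnr at 665, Bcas1 at 610.5, Vxn at 515.5, Scrg1 at 502 and Lhfpl3 at 488 CPM, with Neu4 at 1004 and Enpp6 at 936 CPM. Early progenitors of cluster 13 had more Lhfpl3 (1012 CPM), Tnr (804) and Vxn (726) and about as much Scrg1 (515). The same progenitors had less Gpr17 (1213 CPM), Lims2 (455) and Bcas1 (105). Of the 32, 13 had at least 2 Pdgfra UMIs, whereas the late cells set beside them were chosen for none. Late hsEGFR cells of cluster 8 without Pdgfra had more Bcas1 (log2 ratio 1.93, 95% counting interval 1.52 to 2.41) and Vxn (1.56, 1.11 to 2.09), where 21.3% of 9727 genes were at least 2-fold higher and 18.7% lower. Tnr (0.81), Lhfpl3 (0.26), Lims2 (0.028), Scrg1 (-0.21) and Gpr17 (-0.48) were within 2-fold. The 2 sets of cells come from 1 tumor sample each and from different stages.

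Cell by cell, the 7 genes were detected together in some hsEGFR cells and not at all in others. In cells thinned to 2000 UMIs, medium hsEGFR cells had a UMI of 2.32 of the 7 genes on average (SD 2.06 over 266 cells) and late ones 2.32 (SD 2.37 over 747 cells). At the late stage 35.3% of these cells had none of the 7, 33.5% had 4 or more, and 35 cells had all 7. Progenitors had 4.07, 3.87 and 4.17 of the 7 early, medium and late, and at most 2.44% of them had none. In oligodendrocyte-like cells the mean was 0.34 to 0.45, and no cell had 4 or more.

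**Figure D5:**
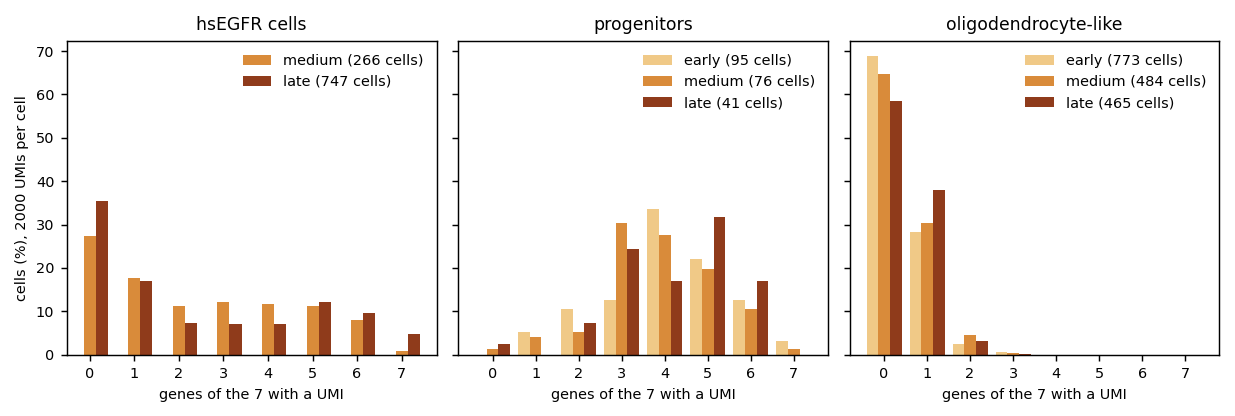
Share of cells (%) by the number of the 7 genes with at least 1 UMI, after thinning each cell to 2000 UMIs, for hsEGFR cells, progenitors and oligodendrocyte-like cells by stage. Late hsEGFR cells have a peak at 0 genes (35.3%) and a second one at 5, progenitors centre on 3 to 5 genes, and oligodendrocyte-like cells lie at 0 to 3.

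Detection of one gene went with detection of the others in hsEGFR cells. Of 369 thinned hsEGFR cells with a Gpr17 UMI, 67.2% had Tnr, 70.2% Bcas1, 66.1% Vxn, 58.3% Lhfpl3, 56.9% Lims2 and 50.4% Scrg1. Of the 648 without a Gpr17 UMI the shares were 12.04%, 21.3%, 25.3%, 17.9%, 13.4% and 12.8%. In progenitors the same comparison was flatter, at 72.9% against 54.3% for Tnr and 19.9% against 19.6% for Bcas1 (166 cells with Gpr17 and 46 without). The transcripts were also more concentrated in hsEGFR cells: the tenth of cells with the most Gpr17 held 64.5% of Gpr17 UMIs in late hsEGFR cells and 63.2% in medium ones, against 31.6%, 43.0% and 40.4% in early, medium and late progenitors. The highest count in a cell was 116 Gpr17 UMIs (medium hsEGFR cell) against 41 in progenitors. Median depth was 6129 to 6595 UMIs in medium and late hsEGFR cells and 2253 to 3176 in progenitors.

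The hsEGFR cells were also split by Gpr17 itself, into cells with at least 5 Gpr17 UMIs (93 medium, 198 late), 1 to 4 (54 and 184) and 0 (150 and 476). Lims2 is left out of the counts because it shares exonic bases with Gpr17. All 5 other genes were at least 2-fold higher in the cells with at least 5 than in those with 0, with a median log2 ratio of 2.64 at the medium and 3.36 at the late stage, where 16.4% and 15.5% of all genes were that much higher and 12.6% and 14.1% that much lower. At the late stage Bcas1 stood at 1648, 452.5 and 145 CPM in this order of classes, Tnr at 895, 291 and 26.8 CPM and Vxn at 1241, 591 and 159 CPM. These are descriptions within 1 tumor sample per stage.

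Outside the oligodendrocyte lineage some of the 7 genes were also found in other cell classes. Each level below is a mean over tumor samples of summed counts, and the order is a description. Lims2 reached 165 ± 54.4 CPM (SD, n = 3) in endothelial cells, against 390.0 ± 106 (n = 3) in progenitors and 304 ± 73.4 (n = 2) in hsEGFR cells. The last pair overlapped. Scrg1 reached 182 ± 53.5 CPM in astrocytes, within the spread of hsEGFR cells (195 ± 20.7). Vxn reached 158 ± 22.9 CPM in neurons or neuroblasts, below hsEGFR cells (468 ± 48.6) and progenitors (749.6 ± 128).

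For Gpr17 the order was progenitors (1433 ± 283 CPM), hsEGFR cells (777.5 ± 263) and then astrocytes (9.47 ± 16.4) and oligodendrocyte-like cells (9.03 ± 2.73), the last pair within their spread. The astrocyte value rests on 1 Gpr17 UMI, in 1 of 166 cells. Tnr fell from progenitors (779 ± 121) to hsEGFR cells (298 ± 15.7) and then to ependymal cells (61.5, 1 sample). Lhfpl3 fell from 972 ± 152 to 318 ± 74.5 and then to 19.5 ± 3.08 CPM in neurons or neuroblasts. Bcas1 had no such order: progenitors (350.1 ± 348) overlapped both hsEGFR cells (486 ± 118) and oligodendrocyte-like cells (192 ± 10.7), which did not overlap each other. Bcas1 was also at 68.7 CPM in ependymal cells (1 sample) and at 48.9 ± 31.8 CPM in endothelial cells.

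In the GENCODE M21 annotation of GRCm38, Gpr17 lies at chr18:31942997-31949636 on the minus strand and Lims2 at chr18:31922290-31958619 on the plus strand, so that the whole of Gpr17 is inside Lims2, and the exons of the pair share 188 bases. Scrg1 lies at chr8:57455923-57477585 and Vxn at chr1:9601199-9627143, both on the plus strand, and Bcas1 lies at chr2:170346991-170427845 on the minus strand.

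Some of the 7 genes share exonic bases with neighbours on the other strand, and the strand setting of the counting is not given in the sources used here, so reads of the shared bases cannot be assigned with certainty. Gpr17 and Lims2 share 3.62% of the exonic bases of Gpr17 and 6.14% of those of Lims2. For each 100 Gpr17 UMIs there were 40.6 Lims2 UMIs in hsEGFR cells, 28.3 in progenitors and 514 in oligodendrocyte-like cells, and endothelial cells had 103 Lims2 UMIs and 0 of Gpr17, so the ratio was not fixed. All 443 exonic bases of the antisense gene Gm38039 lie within Tnr exons, and it had 77.2 UMIs for each 100 of Tnr in hsEGFR cells and 77.5 in progenitors. The antisense gene Bcas1os1 shares 440 exonic bases with Bcas1 and had 12 UMIs in hsEGFR cells against 4361 of Bcas1. The antisense gene Bcas1os2 shares 34 exonic bases with Bcas1 and had 10.9 UMIs for each 100 of Bcas1 in hsEGFR cells and 17.4 in progenitors.

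The genes whose levels across cell groups followed each of the 7 most closely were found over 30 sums of a cell class and stage and 12054 genes, by Pearson's r of log2(CPM + 10). The sums share tumor samples and libraries, so the values are descriptions. For Gpr17 the closest were Lhfpl3 (r = 0.958), Neu4 (0.957) and Matn4 (0.956). For Tnr they were Gm38039 (0.996, the antisense gene), Lhfpl3 (0.954) and Neu4 (0.935), and for Lhfpl3 they were Sox3 (0.971), Nxph1 (0.966) and Neu4 (0.966). The closest to Bcas1 were the neuregulin receptor gene Erbb3 (0.865), Bcas1os2 (0.856) and Snx1 (0.850), and its r to Gpr17 was 0.709. Scrg1 was closest to Cyp2j9 (0.939), Bcan (0.927) and Luzp2 (0.918), Vxn to Olfm2 (0.940), Elfn2 (0.938) and Slitrk3 (0.930), and Lims2 to Meox1 (0.832), Calcrl (0.828) and Slc1a1 (0.825).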

How the data were processed

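The authors deposited 1 table of raw UMI counts (inDrop, single cells sorted on CD45) and 1 annotation table of text that maps each cell to its library, fraction, stage and run. Per the labels and the study's methods, the counts came from RapMap in bcbio-nextgen on the Ensembl GRCm38 transcriptome (mm10) with the transgenes added. Tool versions and the strand setting are not given in the sources used here, nor whether the authors' removal of ambient RNA and of doublets preceded deposit. Of 20811 cells, 9091 CD45- cells were used, and 11720 columns of CD45+ cells were not.

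Cells needed at least 500 UMIs, 500 genes and at most 20% mitochondrial UMIs (6676 passed). Scrublet (expected rate 6%) called 80 of them (1.2%), which left 6596. They were clustered without the 7 genes in scanpy 1.11.5 (2000 variable genes, 40 components, 20 neighbours, Leiden resolution 1) into 23 clusters. A name needed 3 markers at 2-fold in 10% of cells, and cluster 12, with 3 astrocyte markers, was left unnamed after its values were seen, because none of the 8 astrocyte markers was among its leading genes and the matrix genes Tnc and Postn were. Median depth was 2282, 3074 and 3078.5 UMIs at the early, medium and late stage.

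Counts were summed per cell group and tumor sample (at least 20 cells) or library (at least 10 cells where libraries were compared with each other) and given as CPM. Progenitors and oligodendrocyte-like sums were tested with edgeR 4.0.16 in R 4.3.3 (quasi-likelihood, TMM, two-sided, adjusted p under 0.05). The block was the tumor sample, since both sums of a number come from the same sample, and their deviations correlated at 0.17, 0.094 and 0.163 over 5657 genes. On simulated counts of 10039 genes for this comparison, 30% of 2-fold, 98% of 4-fold and 100% of 8-fold increases and 14% of 0.5-fold changes were recovered, with 0.0102% of unchanged genes called. P-values rest on 3 tumor samples, 1 per stage. Other comparisons have 1 tumor sample a side and no test: log2 ratios used a prior of 0.5 counts, genes with at least 10 UMIs and a limit of 2-fold, with exact Poisson or binomial 95% intervals. CPM of a 3' assay is not scaled by length, so only the same gene is compared between cells.

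The 7 genes, the lists and the tests were chosen with earlier results of these data known. Named genes were the 7, the 3 genes most like each, and the first genes of each list in list order, and leading genes of clusters were named after their values were seen. Alternatives were other normalizations (DESeq2 1.42.0 size factors and test, library totals), filters, gates, thinning, mean over cells, totals without mitochondrial and ribosomal protein genes, and each sample or library left out. Part of the mouse genotype and the values of some listed genes are not reported here.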

Additional observations from a re-analysis of the deposited data

Results flagged for a closer look

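In 56 groups of 4 libraries (a gene in a cell group at a stage), a library stood apart from the other 3 by Dixon's 95% limit in 6, where chance gives about 5%. In oligodendrocyte-like cells, where the genes are near 0, these rest on few UMIs. Gpr17 was at 30.11 CPM in late library B (18 UMIs, 9 of them in 1 cell) against 0 to 2.41 CPM in the others, Lhfpl3 at 4.845 CPM in early library B (6 UMIs), Tnr at 6.454 CPM in medium library B (5 UMIs) and Vxn at 2.27 CPM in medium library C (1 UMI), with the other libraries of the last 3 groups at 0. In late progenitors, Lims2 was at 726.7 CPM in library C (38 UMIs) against 311 to 331 CPM, and Scrg1 at 622.1 CPM in library A (18 UMIs) against 269 to 287 CPM.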

How the results depend on the processing

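Of the alternative values that answer a comparison, 75 moved by less than the SD between sequencing runs (counts of genes called, by at most 1.5 times) and 9 by more, and the cause was not tested. Late over medium in hsEGFR cells, the median of the 7 genes was -0.22, -0.014 when thinned, 0.026 as a mean over cells and 0.996 over progenitor-named clusters. Over progenitors, the medium median of -0.61 became -0.945 when thinned, -0.884 as a mean over cells and -0.369 with Pdgfra-high hsEGFR cells only. The late median of -0.90 became -0.50 as a mean over cells and, in an alternative chosen after seeing the data, 0.256 over progenitor-named clusters. Pdgfra-high over Pdgfra-0, the late median of 0.13 became -1.22 over those clusters, also chosen after seeing the data. With each library left out the medians were -0.358 to -0.111, -0.922 to -0.466, -1.132 to -0.916, 0.423 to 1.014 (medium Pdgfra) and 0.051 to 0.283 (late Pdgfra).

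The values for Bcas1 without late library D or without its cell with the most UMIs were chosen after seeing the data. In the edgeR test 5 to 7 of the 7 genes were called. Gpr17 lost its call only under gates on UMIs without clusters (4.56, adjusted p = 0.0743). Bcas1 changed sign without TMM (0.489), with no replicate block (0.21), without replicate 1 (0.475) and without replicate 2 (0.149), with adjusted p from 0.124 to 0.905, and was called lower without replicate 3 and, an alternative chosen after seeing the data, with progenitors of cluster 13 only. Without the block 2548 genes were higher and 2414 lower and no call among the 7 changed. Without TMM the counts were 4047 and 1236, and with cells of at least 3000 UMIs 1719 and 1601. Keeping 1 cell per barcode and tumor sample was also chosen after seeing the data. Depth limits low values: in oligodendrocyte-like cells Tnr, Lhfpl3 and Vxn rest on 1 to 20 UMIs a stage.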

Other observations

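In late hsEGFR cells with at least 5, with 1 to 4 and with 0 Gpr17 UMIs, Bmp4 and Neu4 followed the order of Gpr17. Bmp4 stood at 471, 68.6 and 11.9 CPM and Neu4 at 336, 89.6 and 7.35 CPM. Of 19 committed and newly formed oligodendrocyte genes, 18 late and 15 medium were at least 2-fold higher in the highest class than in the lowest. Of all genes 15.5% late and 16.4% medium were. Of 20 mature myelin genes, 7 were that much higher and 7 lower late, and 1 higher and 17 lower medium. At the late stage Pdgfra was highest in the middle class, at 625, 964 and 184 CPM, and so was the proliferation gene Mki67, at 91.4, 231 and 114 CPM. At the medium stage Mki67 had another order, at 55.1, 21.2 and 100.2 CPM.

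The galectin gene Lgals1 had the opposite order, at 18.6, 369 and 1021 CPM late and at 25.6, 127 and 360 CPM medium. Of the list that Lgals1 belongs to, itself included, 9 of 10 were at least 2-fold lower in the highest Gpr17 class late, and 7 of 9 medium. Median depth in the 3 late classes was 6745.5, 4343.5 and 6170.5 UMIs.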
